A study of Mus musculus with 2 samples.

Results

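Polyamine metabolism was described through 10 genes of 34745 in the table: Smox, Amd1, Amd2, Odc1, Sat1, Srm, Sms, Azin1, Oaz1 and Oaz2. The genes were taken by symbol, each symbol matched 1 line, and all 10 passed a filter on expression, a mean of 1 CPM or more (counts scaled to a common library size). RNA sequencing was run on total RNA of mouse gastrocnemius, a calf muscle, with 1 library per group. The control mice were TECRLflox/flox, with a conditional Tecrl allele, and the TECRLscko mice had that allele together with Pax7-Cre (Pax7tm1(cre)Mrc), so the floxed allele was shared by both groups. Pax7 marks satellite cells, the resident muscle stem cells. It is also expressed by muscle progenitors before birth, and this Cre needs no inducing drug, so fibers formed from recombined progenitors can carry the deletion too. Age, sex, injury, time point and the number of mice behind each library are not stated in the labels used here. The set was chosen by the measured ratio of Smox, which stood among the lower of the well-expressed genes, and by its pathway, so the control to TECRLscko difference is given for the members as a description, with no test.

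Polyamines are the small cations putrescine, spermidine and spermine, which bind RNA and DNA and are needed for growth. Ornithine decarboxylase makes putrescine, and adenosylmethionine decarboxylase makes the aminopropyl donor with which spermidine synthase and spermine synthase extend it in turn. Spermine oxidase and the acetyltransferase Sat1 lead back to the shorter polyamines, and antizymes hold ornithine decarboxylase in check. In mouse muscle, Smox is known to fall with disuse and denervation.

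Depth was 19281017 counts in the control against 16946124 counts in the TECRLscko library. With 1 library per group there was no spread between mice to compare with, so every interval given here is a 95% interval of counting error alone, and a difference is one between 2 libraries. Tecrl itself, the gene targeted, had 3 counts in the control against 4 in the TECRLscko library, so its deletion could not be checked at this depth. The tissue label was borne out by its markers: the 8 fast fiber genes together reached 140430 CPM in the control against 123097 CPM in the TECRLscko library. The other marker lists moved in several directions. All 7 slow fiber genes exceeded the control, with a summed level of 1759 CPM in the control against 3026 CPM, and 5 of them by at least 1.5-fold. Fat cell genes summed to 41.6 CPM in the control against 19.0 CPM, 4 of 5 past the filter were at least 1.5-fold lower, and Lep stood at 0 counts in the TECRLscko library. The 5 tendon cell genes summed to 56.7 against 90.7 CPM and the 6 macrophage genes to 121 against 106 CPM. The 5 satellite cell genes summed to 63.3 against 57.9 CPM, of which Spry1 alone held 46.0 and 37.8 CPM. Of these 5 genes 2 were above the control and 3 below, so the list has no common direction. Endothelial genes summed to 435 CPM in the control against 429 CPM, and genes of fibroblasts and fibro-adipogenic progenitors to 1873 against 1728 CPM. Schwann cell genes summed to 84.2 against 72.4 CPM and red blood cell genes to 148 against 175 CPM. The 4 genes of proliferating cells summed to only 1.98 against 4.71 CPM, with 2 past the filter. No lymphocyte gene passed the filter, and Cd3e and Cd3g stood at 0 counts in the control. The part of these shifts in the polyamine gene ratios was not tested, and in whole muscle fewer cells of a type and less RNA per cell cannot be told apart. Both libraries held Y-linked messages, with 538 and 1025 counts of Ddx3y in the control and TECRLscko library. The other Y-linked genes differed less, with 555 and 631 counts of Eif2s3y, 292 and 343 of Kdm5d and 175 and 259 of Uty. Xist had 2 and 0 counts (genes chosen after their values were seen).

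In the TECRLscko library Smox was 2.43-fold lower, Amd1 1.83-fold, Amd2 1.68-fold and Odc1 1.46-fold lower. Sat1 and Srm were lower by smaller and less certain amounts. Sms, Oaz1, Oaz2 and Azin1 had ratios between 1.02 and 1.22, and of these Oaz1 turned lower with its copy added and Sms and Azin1 with the length and GC correction. Together the 10 genes held 50357 counts, or 0.261% of the control library, and 24473 counts, or 0.144% of the TECRLscko library.

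Several of these genes have near-identical copies, and short sequences show why their counts are hard to part. Adenosylmethionine decarboxylase messages begin with an upstream reading frame, through which polyamines slow translation in mammals. That frame, from the annotation GENCODE M21 (GRCm38), was the same in Amd1 (chr10:40302155-40302175, minus strand) and Amd2 (chr10:35711860-35711880, minus strand), with start and stop codon in capitals.
Amd1 upstream frame: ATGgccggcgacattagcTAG
Amd2 upstream frame: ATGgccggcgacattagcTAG
The main reading frames of Amd1 and Amd2 have 1002 bases each and differ at 1 base. The 60 bases around it are shown for Amd1 (chr10:40290157-40290216, minus strand), Amd2 (chr10:35710735-35710794, minus strand) and the pseudogene Amd-ps1 (chrX:155155949-155156008, plus strand), with the base that differs from Amd1 in capitals.
Amd1 coding window: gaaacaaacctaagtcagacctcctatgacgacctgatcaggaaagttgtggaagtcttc
Amd2 coding window: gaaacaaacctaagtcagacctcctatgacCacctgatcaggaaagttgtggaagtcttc
Amd-ps1 window: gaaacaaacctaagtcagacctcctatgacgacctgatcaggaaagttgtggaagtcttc
In this window the pseudogene equals Amd1, although over 991 aligned coding bases 31 differ between them. Whole transcripts of Amd1 and Amd2 were 99.56% identical over 3202 bases, with 10 mismatches.

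Antizyme messages carry a stop codon early in the frame that ribosomes pass by shifting frame when polyamines are abundant. The 66 bases around that stop codon, TGA in capitals, are shown for Oaz1 (chr10:80828262-80828327, plus strand), its processed copy Oaz1-ps (chr17:17345904-17345969, minus strand) and Oaz2 (chr9:65686239-65686304, plus strand), again in GRCm38.
Oaz1 frameshift site: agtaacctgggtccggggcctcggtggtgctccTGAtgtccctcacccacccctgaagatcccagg
Oaz1-ps frameshift site: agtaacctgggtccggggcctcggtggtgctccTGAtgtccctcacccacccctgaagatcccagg
Oaz2 frameshift site: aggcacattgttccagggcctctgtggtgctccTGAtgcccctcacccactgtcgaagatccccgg
Oaz1 and Oaz1-ps were identical here, and Oaz2 differed from Oaz1 at 13 bases. The annotated reading frames of Oaz1 and Oaz2 step over 1 base in this window, at position 80828295 of chromosome 10 and 65686272 of chromosome 9.

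**Figure D1:**
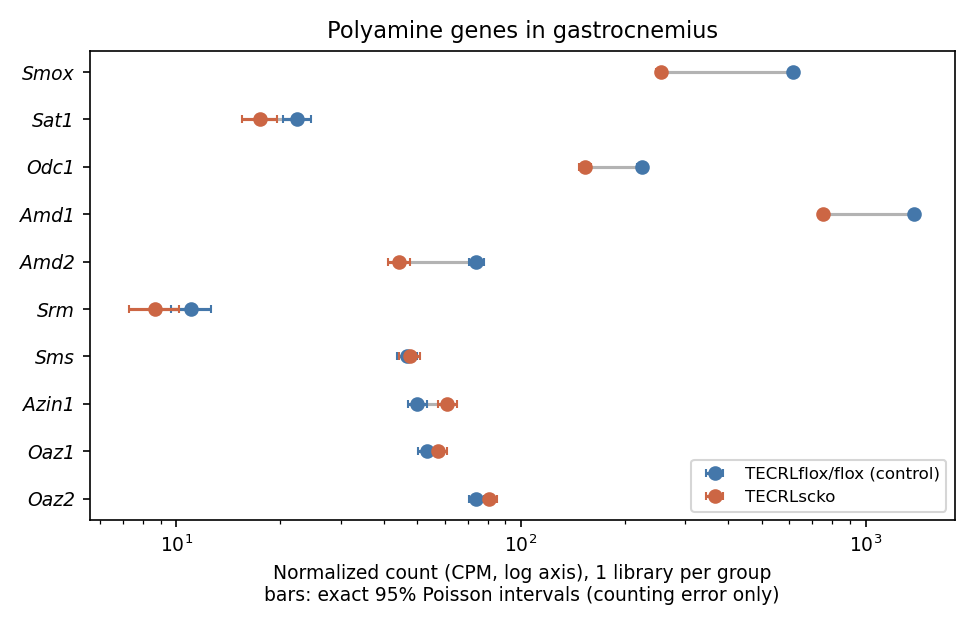
Level of each of the 10 genes in both libraries, as CPM on a log axis, 1 point per library with exact 95% Poisson bars for counting error. Amd1 and Smox stand highest in both libraries and are lower in the TECRLscko library, while Sms, Oaz1 and Oaz2 nearly coincide.

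Odc1 (ENSMUSG00000011179, chromosome 12, 17544873 to 17551502, plus strand, GRCm38), ornithine decarboxylase, opens the pathway. It had 4416 counts in the control and 2545 counts in the TECRLscko library, or 223.7 and 153.7 CPM after scaling by TMM. TMM is a single factor for each library, which assumes that most genes do not differ. Odc1 was 1.46-fold lower (1.39 to 1.53). Its log2 ratio was -0.54, and -0.36 after correcting for the length and GC content of transcripts. Reads of the related locus AW146154, which is 92.2% identical in its aligned part, were few, with 59 counts in the control and 69 counts in the TECRLscko library, and a second copy, Gm15645, had 0 counts in both. With these copies added, Odc1 was 1.44-fold lower.

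Amd1 (ENSMUSG00000075232, chromosome 10, 40287458 to 40302188, minus strand), adenosylmethionine decarboxylase, was the most abundant gene of the set. It had 27213 counts, or 1379 CPM, in the control and 12472 counts, or 753.4 CPM, in the TECRLscko library. The level was 1.83-fold lower (1.79 to 1.87). Among the 1126 genes at a mean level of 100 CPM or more, its log2 ratio of -0.87 was the 9th lowest. Amd2 (ENSMUSG00000063953, chromosome 10, 35708691 to 35711891, minus strand), the near-identical copy, had 1466 counts in the control and 731 counts in the TECRLscko library. It was 1.68-fold lower (1.54 to 1.84). Since the counter's treatment of reads that map to both is not given in the sources used here, the separate values are uncertain and the sum is the safer quantity. Amd1 plus Amd2 came to 1453 CPM in the control against 797.6 CPM in the TECRLscko library, 1.82-fold lower (1.78 to 1.86), a log2 ratio of -0.86. Amd2 held 5.11% of the sum in the control (Wilson interval 4.86 to 5.37) against 5.54% (5.16 to 5.94), so the division between both genes was nearly the same in the libraries.

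Pseudogenes took a further portion of the Amd reads. Amd-ps3, which is 99.9% identical to Amd1 over 1005 bases, had 6310 counts in the control and 3413 counts in the TECRLscko library. Amd-ps1, which is 96.69% identical over 996 bases, had 1691 counts in the control and 900 counts in the TECRLscko library. Both were lower in the TECRLscko library, by 1.55-fold and 1.58-fold, like the genes they copy. Amd-ps4, Amd-ps5 and Amd-ps2 held between 9 and 49 counts per library. The 5 pseudogenes together held 21.98% of all Amd counts in the control against 24.8% in the TECRLscko library. With all of them added to Amd1 and Amd2, the total was 36759 counts in the control and 17561 counts in the TECRLscko library, 1.76-fold lower (1.72 to 1.79).

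Srm (ENSMUSG00000006442, chromosome 4, 148591503 to 148594993, plus strand), spermidine synthase, was the least expressed gene of the set. It had 218 counts in the control and 143 counts in the TECRLscko library, or 11.04 and 8.64 CPM. The level was 1.28-fold lower, and the interval of 1.03 to 1.59 reached close to equality. The log2 ratio of -0.34 came to -0.05 after the length and GC correction. Sms (ENSMUSG00000071708, chromosome X, 157443855 to 157492287, minus strand), spermine synthase, had 922 counts in the control and 787 counts in the TECRLscko library. At 46.7 and 47.5 CPM its ratio was 1.02 (0.924 to 1.12), so no difference was detectable at this depth. Within the libraries, the ratio of Srm to Sms counts was 1.301 times greater in the control (1.03 to 1.64), but after the length and GC correction their log2 ratios stood at -0.05 and -0.15, the other way round.

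Smox (ENSMUSG00000027333, chromosome 2, 131491496 to 131525922, plus strand), spermine oxidase, turns spermine back into spermidine and releases hydrogen peroxide. It had 12173 counts in the control and 4206 counts in the TECRLscko library, or 616.7 and 254.1 CPM. Smox was 2.43-fold lower (2.34 to 2.51), with a log2 ratio of -1.28, and -1.08 after the length and GC correction. Of the 12559 genes compared it ranked 48th from the lowest, and of the 1126 genes with at least 100 CPM it was the 2nd lowest. Sat1 (ENSMUSG00000025283, chromosome X, 155213132 to 155216449, minus strand), which acetylates spermidine and spermine for export or oxidation, had 443 counts in the control and 289 counts in the TECRLscko library. At 22.4 and 17.5 CPM, Sat1 was 1.29-fold lower (1.11 to 1.496). The ratio of Smox to Sat1 counts within a library was 27.5 in the control against 14.6 in the TECRLscko library, 1.89 times greater in the control (1.62 to 2.20).

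Oaz1 (ENSMUSG00000035242, chromosome 10, 80826656 to 80829290, plus strand), the main antizyme, binds ornithine decarboxylase and sends it to the proteasome. It had 1055 counts in the control and 948 counts in the TECRLscko library, a ratio of 1.07 (0.980 to 1.17) with equality inside the interval. Its copy Oaz1-ps, 99.71% identical over 685 bases, was listed with more counts than the gene itself, 2422 in the control against 1554 in the TECRLscko library, and was 1.31-fold lower (1.23 to 1.39). Summed with this copy, Oaz1 was 1.17-fold lower (1.11 to 1.23), so its direction depends on where reads shared by both were counted. Oaz1-ps held 69.7% of the sum in the control (68.1 to 71.2) against 62.1% in the TECRLscko library (60.2 to 64.0). Oaz2 (ENSMUSG00000040652, chromosome 9, 65668001 to 65690300, plus strand), a second antizyme, had 1464 counts in the control and 1339 counts in the TECRLscko library, a ratio of 1.09 (1.01 to 1.18). Its copy Oaz2-ps held 161 and 136 counts, and the sum of both gave a ratio of 1.08.

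Azin1 (ENSMUSG00000037458, chromosome 15, 38487430 to 38519266, minus strand), the antizyme inhibitor, binds antizyme in place of ornithine decarboxylase and so frees the enzyme. It had 987 counts in the control and 1013 counts in the TECRLscko library, or 50.0 and 61.2 CPM. This was the highest ratio of the set, 1.22 (1.12 to 1.34). The log2 ratio of 0.29 turned to -0.13 after the length and GC correction, so no direction is given for Azin1.

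**Figure D2:**
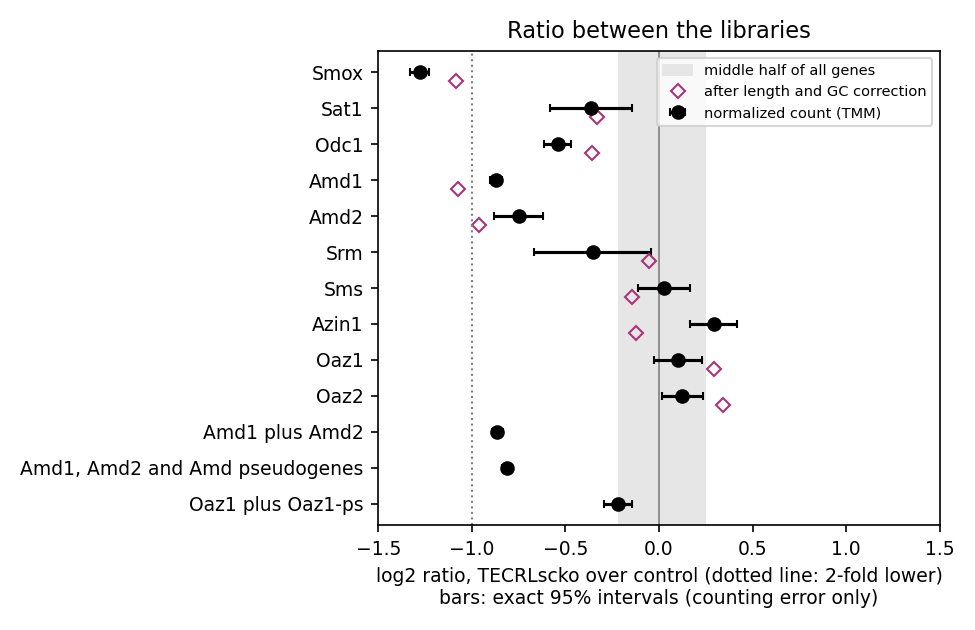
Log2 ratio of the TECRLscko over the control library for each gene and for 3 sums with their copies, where filled points are normalized counts with exact 95% bars for counting error and open points are the values after the length and GC correction. Smox lies at -1.28 and the Amd sums between -0.86 and -0.81, Oaz1 plus Oaz1-ps lies below 0 while Oaz1 alone does not, and Azin1 moves from 0.29 to -0.13.

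**Figure D3:**
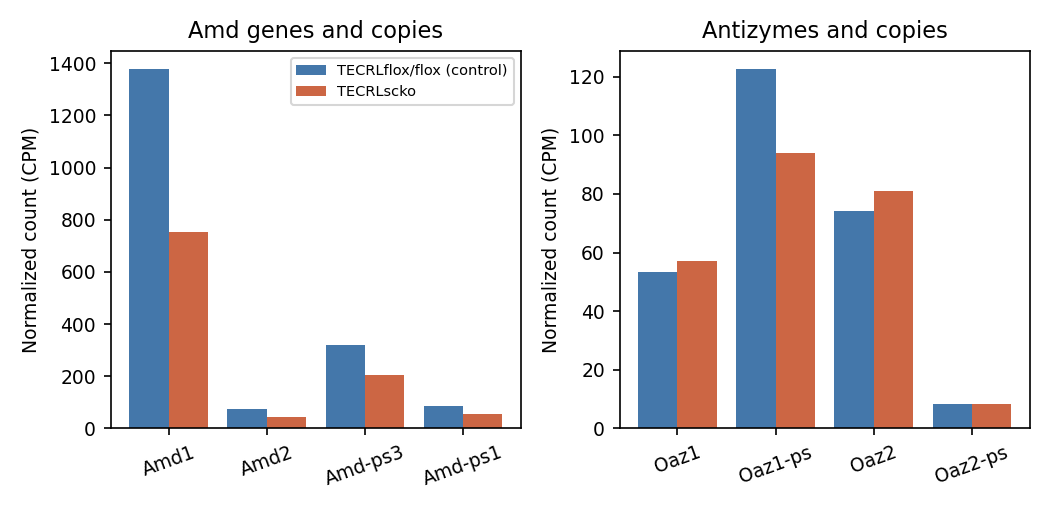
Level in CPM of Amd1, Amd2, Amd-ps3, Amd-ps1, Oaz1, Oaz1-ps, Oaz2 and Oaz2-ps in the control and the TECRLscko library, as bars on a linear axis. Amd-ps3 and Amd-ps1 exceed Amd2 in both libraries, and Oaz1-ps exceeds Oaz1.

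By the rule of at least 2-fold, 1 of the 10 genes (Smox) was lower and 0 were higher, beside 0.796% of the 12559 genes compared that were lower and 2.28% that were higher. By a rule of at least 1.5-fold, 3 of 10 (Smox, Amd1 and Amd2) were lower and 0 higher, beside 3.88% of all genes lower and 9.24% higher. The set was assembled around this contrast, so nothing is read from these counts. The median log2 ratio of the 10 genes was -0.35, and that of all genes -0.02 with quartiles at -0.21 and 0.24. Below the lower quartile lay 6 of the 10 genes, 3 lay between the quartiles and Azin1 lay above the upper one. After the length and GC correction 5 of 10 lay below the lower quartile. The values on both sides of the 2-fold rule were -1.28 for Smox and -0.87 for Amd1, and on both sides of the 1.5-fold rule -0.74 for Amd2 and -0.54 for Odc1.

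**Figure D4:**
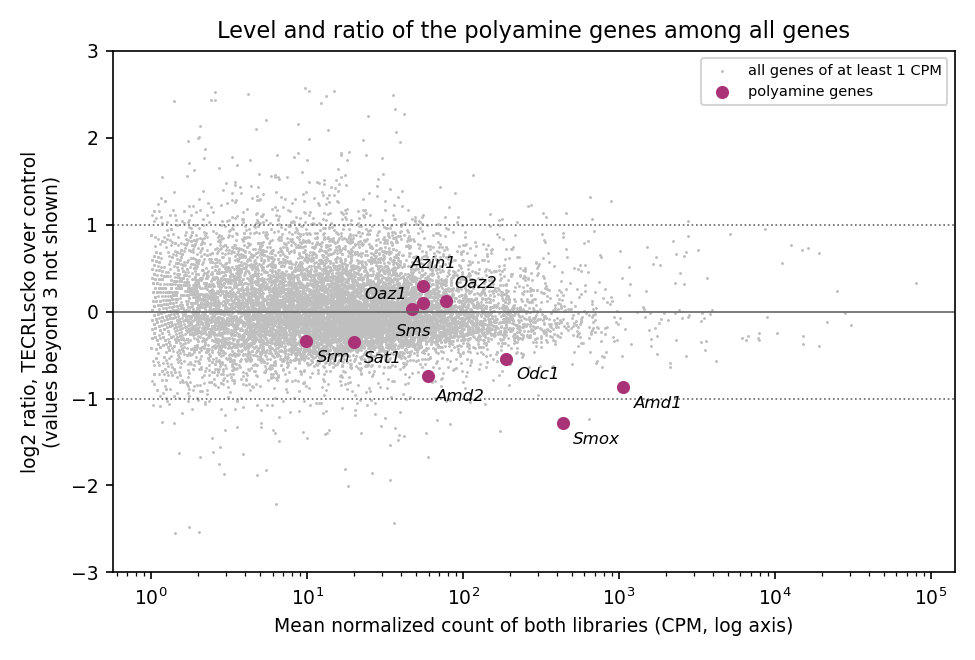
Log2 ratio of TECRLscko over control against the mean level in CPM (log axis) for all genes compared, with the 10 polyamine genes marked. Smox and Amd1 lie to the right, among genes over 100 CPM, of which 5 (0.444%) were at least 2-fold and 31 (2.75%) at least 1.5-fold lower.

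Levels between genes were compared as CPM per kilobase of the longest annotated protein-coding transcript. In the control, Amd1 led with 430 CPM per kilobase, followed by Smox with 268, Odc1 with 101, Oaz1 with 49.9 and Oaz2 with 40.2 CPM per kilobase. The lower levels were Amd2 with 23.1, Sat1 with 19.3, Sms with 12.6, Azin1 with 10.3 and Srm with 8.25 CPM per kilobase. In the TECRLscko library the order began in the same way, with Amd1 at 235, Smox at 111 and Odc1 at 69.6 CPM per kilobase. The counting intervals of neighbours in the control order did not overlap, and the closest were those of Azin1 (9.64 to 10.9) and Srm (7.20 to 9.43). In the TECRLscko library Sat1 (15.0), Amd2 (13.7), Sms (12.8) and Azin1 (12.6 CPM per kilobase) stood next to each other with overlapping counting intervals, so their order is not resolved. The level of Oaz1 leaves out the reads listed at its copy. The deposited FPKM values were not used for this order, because for some of the genes they divide by a longer length, as for Smox with 8892 bases against 2299 bases in its longest protein-coding transcript.

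Ratios of counts within a library are free of any scaling between libraries, though not of differences that follow transcript length or GC content. Smox to Odc1 was 2.76 in the control against 1.65 in the TECRLscko library, 1.67 times greater in the control (1.57 to 1.77). Smox to Amd1 plus Amd2 was 0.424 in the control against 0.319 in the TECRLscko library, 1.33 times greater in the control (1.28 to 1.39). By its counts, Smox was thus lower in the TECRLscko library even relative to Odc1 and the Amd genes. After the length and GC correction this held against Odc1, with log2 ratios of -1.08 and -0.36, but not against Amd1 plus Amd2, at -1.07. Against spermine synthase, Smox went from 13.2 in the control to 5.34 in the TECRLscko library and Amd1 plus Amd2 from 31.1 to 16.8. Odc1 to Oaz1 plus Oaz1-ps was 1.27 in the control against 1.02 in the TECRLscko library, 1.25 times greater in the control (1.16 to 1.34). Odc1 to Azin1 was 4.47 in the control against 2.51 in the TECRLscko library, but after the length and GC correction their log2 ratios, -0.36 and -0.13, lay closer together. By counts, message for the decarboxylase was lower relative to Oaz1 with its copy. Odc1 to Srm, at 20.3 and 17.8, was 1.14 times greater in the control, and its interval of 0.917 to 1.41 held equality. Srm to Sat1 was 0.492 and 0.495 in the control and TECRLscko library, with no difference detectable by counts. After the length and GC correction the log2 ratio of Srm, -0.05, lay above those of Odc1, -0.36, and Sat1, -0.33.

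Within the set, Amd1 made up 54.0% of the counts in the control against 50.96% in the TECRLscko library. Smox made up 24.2% in the control against 17.2% in the TECRLscko library, while Odc1 made up 8.77% and 10.4%. The share of Odc1 was thus greater in the TECRLscko library although its level was lower.

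The promoters of the 3 most abundant members are shown because their messages were lower together. They are taken from the 250 bases before each start in the RefSeq table (GRCm38.p6). The RefSeq start of Smox lies downstream of the start of its gene model, 131491496. Each is the longest stretch with no exon of the gene in GENCODE M21, and that of Smox lies within its gene model. They are the 110 bases chr2:131491654-131491763 (plus strand) for Smox, the 250 bases chr10:40302189-40302438 (minus strand) for Amd1 and the 171 bases chr12:17544623-17544793 (plus strand) for Odc1, with each GC box (GGGCGG, or CCGCCC on the other strand) in capitals.
Smox promoter: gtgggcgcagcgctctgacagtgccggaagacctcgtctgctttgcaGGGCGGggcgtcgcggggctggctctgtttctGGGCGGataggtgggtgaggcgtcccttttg
Amd1 promoter: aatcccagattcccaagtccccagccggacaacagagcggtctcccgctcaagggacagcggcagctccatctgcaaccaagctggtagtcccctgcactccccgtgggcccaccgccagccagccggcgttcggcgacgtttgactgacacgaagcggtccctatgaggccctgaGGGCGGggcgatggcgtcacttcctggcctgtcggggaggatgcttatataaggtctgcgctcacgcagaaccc
Odc1 promoter: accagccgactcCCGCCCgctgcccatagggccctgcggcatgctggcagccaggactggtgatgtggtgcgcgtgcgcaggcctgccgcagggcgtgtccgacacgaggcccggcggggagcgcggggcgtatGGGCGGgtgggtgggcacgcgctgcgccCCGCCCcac
The table held windows of 250 bases before and 50 after the start for 8 of the 10 genes, all but Srm and Azin1. A GC box, the letters that Sp1-type factors bind, occurred 6 times in the window of Smox, 4 times in that of Odc1 and 1 time in that of Amd1, overlapping matches included. The printed stretches hold 2, 3 and 1 of these. Oaz2, which was not lower, also had 4 GC boxes, Sat1 had 2, the pair of Sms windows had 4 and 0, and Amd2 and Oaz1 had 0. Of all 32851 windows of this length 35.7% held a GC box, and 1.35% held 6 or more, a limit chosen after the count of Smox was seen. The E-box CACGTG, which reads the same on both strands and is bound by Myc, was found in 1 of the Sms windows and for no other member, and in 7.15% of all windows. TATAAA, on either strand, was found in that of Oaz1 and no other member, and in 13.6% of all windows. These matches describe letters and not binding.

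Around these genes, 53 others of the pathway were listed by role and 41 of them passed the filter. By the 2-fold rule 0 were lower and 0 higher, beside 0.796% of all genes compared that were lower and 2.28% higher. By the 1.5-fold rule 1 was lower and 1 higher, beside 3.88% of all genes lower and 9.24% higher. Their median log2 ratio was -0.03, close to that of all genes, with 19 above and 22 below the control. The gene at least 1.5-fold lower was Sat2, a relative of Sat1 known in human for acetylating thialysine, on 88 counts in the control and 38 counts in the TECRLscko library, 1.94-fold lower (1.31 to 2.92). The higher gene was Atp13a3, a transporter of polyamines, with 413 counts in the control against 570 in the TECRLscko library, a ratio of 1.65 (1.45 to 1.87). The log2 ratio of Atp13a3, 0.71, came to 0.14 after the length and GC correction.

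The remaining groups stayed nearer to the control. All 5 genes of ornithine and arginine supply past the filter were below it, with a median of -0.20, led in level by Oat, ornithine aminotransferase, at 206.6 CPM in the control against 180.0 CPM in the TECRLscko library. In the methionine cycle, which makes the substrate of Amd1, 7 genes had a median of 0.08, and Mat2a, the synthetase of S-adenosylmethionine, stood at 256.8 and 305.3 CPM. Methionine salvage, which recycles the by-product of both synthases, had a median of -0.28 over 5 genes, with Adi1 at 78.1 and 62.8 CPM. The list of hypusination, in which spermidine modifies the translation factor eIF5A, had a median of -0.20 over 4 genes. Eif5a itself was 1.39-fold lower, at 272.8 CPM in the control against 196.6 CPM in the TECRLscko library, and its log2 ratio of -0.47 came to -0.22 after the correction. The 7 transport genes had a median of 0.18, and Gpc1, a heparan sulfate carrier of polyamines, stood at 318.8 and 256.1 CPM. The 4 genes of terminal oxidation had a median of 0.10, led by Maob at 16.0 and 17.6 CPM. Of the other polyamine enzymes, the oxidase Paox had 25 and 27 counts and Azin2 had 44 and 43 counts in the control and TECRLscko library, and Oaz3, an antizyme of the testis, had 0 and 4 counts.

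Among 6 factors known to act on these genes the median was 0.06 and none reached 1.5-fold. Nfe2l2, which drives antioxidant genes, was the most highly expressed, at 79.8 CPM in the control against 85.2 CPM in the TECRLscko library. Myc, an activator of Odc1, had 122 counts in each library, or 6.18 CPM in the control against 7.37 CPM in the TECRLscko library. Its ratio was 1.19 (0.920 to 1.55), with equality inside the interval.

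**Figure D5:**
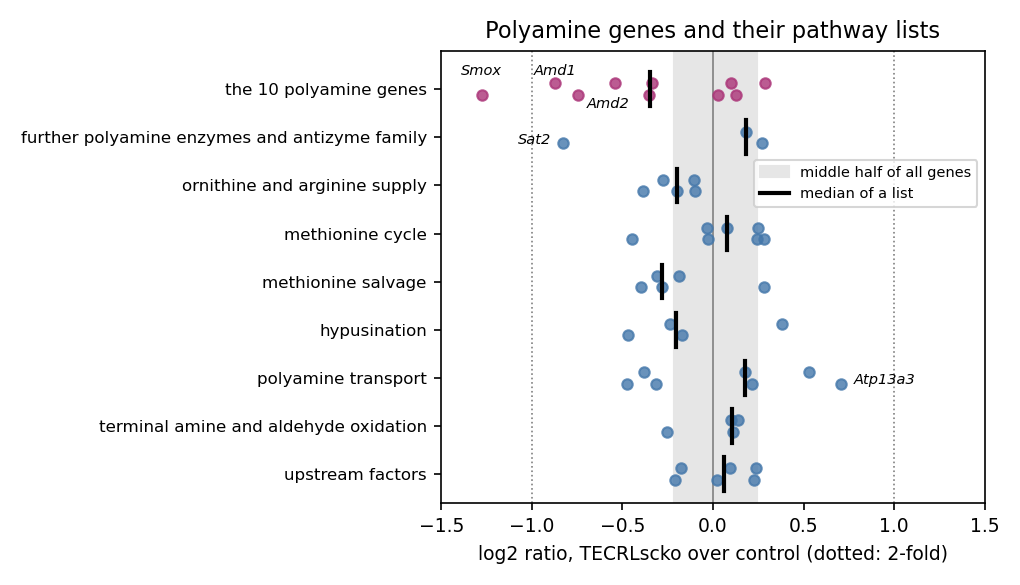
Log2 ratio of TECRLscko over control for the 10 polyamine genes (top row) and for the other genes of the pathway by list, 1 point per gene past the filter, a black bar at each list's median and names for genes at least 1.5-fold from the control. The medians of the other lists lie between -0.28 and 0.18, and that of the 10 genes at -0.35.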

How the data were processed

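Per the labels' protocols, gastrocnemius total RNA was made into libraries with the VAHTS Universal V6 kit and read on an Illumina machine. HISAT2 2.0.4, StringTie 1.3.0, CASAVA and GRCm38 are named, per the submitters' processing notes, with no role stated. How reads were counted, with which strand setting, and what was done with reads of several matches, is not given in the sources used here. Per the file headers, the deposited table holds a raw count and an FPKM value per gene for each of 2 libraries. Scaling used TMM factors from edgeR 4.0.16 (R 4.3.3), 1.02 in the control against 0.977 in the other library. A pseudocount of 0.5 CPM was added to both levels before the log2 ratio was taken, so ratios of low genes are drawn towards 0. Folds are plain CPM ratios. The comparison was kept to genes whose mean reached 1 CPM.

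Intervals at 95% are Clopper-Pearson intervals given the summed counts for ratios, Poisson for levels, Wilson for shares and normal on the log scale for ratios of 2 genes' counts. They cover counting error only, as there was 1 library per group. Reads were not tagged by molecule, so repeated reads of 1 molecule are not separated in this counting error. A floor of 3 counts is 0.152 CPM for the control and 0.181 CPM for the other library. No test was possible with 1 library per group. The length and GC correction was a lowess fit (span 0.3, statsmodels 0.14.6) over all genes on the longest transcript of GENCODE M21. Copies were found with BLAST 2.17.0 (at least 90% identity over at least 300 bases). The calculations were tested on simulated data.

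The members, gene lists and alternatives were chosen with earlier results of these data known. Named are all members, their copies, Tecrl, genes of the pathway lists at least 1.5-fold from the control and the most expressed gene of each pathway list, while cell type markers are given by list. Eif5a is the most expressed of its list. Spry1 is named for its part in the satellite cell sum, after values were seen. Myc, Paox, Azin2, Oaz3, the zero-count markers and the sex-linked genes were added for their role after values were seen. Alternatives were scaling by total counts or by DESeq2 1.42.0, the deposited FPKM as such or centred on its median, pseudocounts of 0.1 and 1, other filters, a 1.5-fold rule, leaving out mitochondrial and hemoglobin genes, and pseudogenes added by name. The values of 1 gene of the pathway lists are not reported here. A fit on length alone and copies found by sequence were added after seeing the data.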

Additional observations from a re-analysis of the deposited data

How the results depend on the processing

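Smox, at a log2 ratio of -1.28 with TMM scaling, stayed lower under all 9 alternatives and moved beyond its counting interval under 4: -1.35 with total-count scaling, -1.33 with FPKM, -1.08 after length and GC correction and -1.17 after length correction alone. Amd1 plus Amd2, at -0.86, stayed lower under 11 alternatives and moved under 6: -0.93 with total-count scaling and with FPKM, -0.83 with centred FPKM, -1.07 after length and GC correction, and -0.81 with the pseudogenes added, whether by name or by sequence. The number of the 10 genes at least 2-fold lower was 1, but 2 after length and GC correction (Smox and Amd1) and 3 by the 1.5-fold rule, which also brought the other pathway genes from 0 to 1 lower and from 0 to 1 higher. Azin1 reversed, from 0.29 to -0.13 after length and GC correction. Oaz1 ranged from -0.22, with its copy added, to 0.29, and Sms from -0.15 to 0.06, so neither has a settled direction. The cause of these moves was not tested, apart from the added counts and the changed rule. Total-count scaling shifts all log2 ratios by -0.07 against TMM. No replicate could be left out. No paired analysis was possible because there is 1 library in each group. Srm, with 218 and 143 counts, is the gene of the set that depth limits most, and the spread between mice is unknown for all.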
